A study of Mus musculus with 18 samples.

Results

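The 10 genes described here code for amino acid transporters that are tied to cell growth: *Slc6a14*, *Slc7a5*, *Slc7a6*, *Slc7a1*, *Slc3a2*, *Slc1a5*, *Slc38a1*, *Slc38a2*, *Slc43a2* and *Slc1a4*. They were chosen by name and function out of 45706 genes in the count files, with earlier comparisons of the KO and control kidneys in view. The KO effects on them are therefore given as a description, and nothing is supported with them. All 10 had reads in the kidney, and all 10 passed the filter on low counts in both cohorts.

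Whole kidneys were taken from male C57BL/6 littermates of 10 to 12 weeks, 12 h after clamping of both renal pedicles for 22.5 min. The *Cxcl12* KO group (n = 5) had the genotype CXCL12 F/F Pax8rtTA TetOcre, and the *Cxcl12* control group (n = 3) was CXCL12 F/F Pax8rtTA without the recombinase. The *Myc* KO group (n = 5) was C-myc F/F Pax8rtTA TetOcre, and the *Myc* control group (n = 5) was C-myc F/F Pax8rtTA. KO and control mice of a cohort thus shared the floxed alleles, and all 4 groups shared the transactivator, doxycycline in the drinking water for 14 days, a washout of 1 week and the injury, and no uninjured kidney is among the 18. Pax8rtTA restricts the recombinase to tubule cells, so other cells of the kidney kept both target genes. Differences between the cohorts cannot be told apart from differences in litter, surgery or sequencing.

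Cells that divide or repair themselves need amino acids, and their uptake is limited by carriers of the solute carrier families. SLC7A5 pairs with the heavy chain SLC3A2 to form LAT1, which imports leucine and other large neutral amino acids in exchange for glutamine. SLC1A5, SLC38A1 and SLC38A2 bring in glutamine and other small neutral amino acids, SLC7A1 carries arginine and lysine, and SLC6A14 concentrates neutral and cationic amino acids with sodium and chloride. Leucine and arginine inside the cell signal to the mTORC1 kinase complex. MYC is known from tumour cells to bind or induce several of these genes, and the stress factor ATF4 is known for inducing others when amino acids run short.

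Promoter sequences were available for 7 of the 10 genes (10 windows of 250 bases before the start of transcription, RefSeq, GRCm38.p6). *Slc7a5*, *Slc1a5* and *Slc38a1* were not matched. *Slc7a6*, *Slc7a1* and *Slc43a2* had 2 windows each, and those of *Slc7a6* overlap, so the 10 windows are not independent. The windows of *Slc6a14* and *Slc38a2* are shown because these genes had the largest higher values in both KO groups. They run from base -250 to base -11 and are printed 5′ to 3′ on the strand of the gene, *Slc6a14* at chrX:21714650-21714889 on the plus strand and *Slc38a2* at chr15:96699739-96699978 on the minus strand. Capitals mark every match to the motifs searched on both strands.
Slc6a14: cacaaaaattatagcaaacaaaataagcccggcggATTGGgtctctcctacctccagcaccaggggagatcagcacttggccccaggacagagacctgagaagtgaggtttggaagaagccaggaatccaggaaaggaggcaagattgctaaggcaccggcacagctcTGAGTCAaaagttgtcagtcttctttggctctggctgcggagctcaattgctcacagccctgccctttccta
Slc38a2: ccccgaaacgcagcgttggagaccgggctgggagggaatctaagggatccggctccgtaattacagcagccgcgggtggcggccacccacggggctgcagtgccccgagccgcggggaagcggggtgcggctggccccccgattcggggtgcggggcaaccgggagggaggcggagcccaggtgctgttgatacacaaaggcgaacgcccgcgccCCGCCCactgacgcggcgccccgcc
In the *Slc6a14* window the capitals are a CCAAT box (CCAAT, here on the reverse strand) that begins at base -215 and an AP-1 motif (TGANTCA) at base -82. The *Slc38a2* window holds 1 GC box (GGGCGG, on the reverse strand) at base -35. The E-box bound by MYC (CACGTG) was in 0 of the 10 windows and in 6.02% of all 32851 promoters of the same length. The motif of the ATF4 composite site (TGATGNAAT) was in 0 of 10 windows and in 0.82% of all promoters, and the AP-1 motif was in 2 of 10 windows and in 6.75% of all promoters. The GC box was in 7 of 10 windows and in 32.74% of all promoters. The CCAAT box was in 4 of 10 windows (33.85% of all promoters). The E-box variant CACGCG (7.62%), the STAT motif TTCNNNGAA (7.02%) and the TATA box TATAAA (12.37%) were each in 1 of 10. A match or its absence describes these letters only, and windows beyond these bases were not searched.

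The libraries held between 12918220 and 29749500 reads on genes. *Myc* had a mean CPM (read counts scaled to library size) of 31.0 ± 3.94 (SD, n = 5) in the *Myc* KO kidneys and of 94.8 ± 14.5 (n = 5) in their controls, and *Cxcl12* averaged 32.2 ± 6.07 CPM (n = 5) in *Cxcl12* KO and 53.4 ± 7.92 CPM (n = 3) in *Cxcl12* control kidneys. For the gene deleted, all KO kidneys of a cohort lay below all control kidneys. So did 3.92% of the genes tested in the *Myc* cohort and 4.72% in the *Cxcl12* cohort. In edgeR's quasi-likelihood test the adjusted p was 8.82e-05 for *Myc* in the *Myc* cohort. For *Cxcl12* in the *Cxcl12* cohort it was 0.0942 (0.00178 from DESeq2), so edgeR's test did not call the deleted gene there. Markers of the nephron segments were present in every library. In 6 kidneys (2 *Cxcl12* KO, 0 *Cxcl12* control, 2 *Myc* KO, 2 *Myc* control) the share of unmapped reads was under 5%, and their libraries were deeper than the other 12. In whole kidney, fewer cells of a type and less RNA per cell cannot be told apart.

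The carriers differed far more in level than they did between genotypes. Per kb of exon, the heavy chain *Slc3a2* was the most abundant with 121 ± 17.2 CPM per kb (SD, n = 18 kidneys), followed by *Slc38a2* with 53.7 ± 13.6 and the glutamine carrier *Slc1a5* with 20.6 ± 2.90. *Slc43a2*, which codes for the uniporter LAT4 of branched-chain amino acids and phenylalanine, had 15.0 ± 2.27 CPM per kb. *Slc1a4*, a carrier of alanine, serine and cysteine, had 9.51 ± 2.85, *Slc7a5* 9.11 ± 1.58, *Slc7a1* 7.22 ± 0.973 and *Slc7a6* 4.42 ± 1.08 CPM per kb. *Slc6a14* with 0.835 ± 0.594 and *Slc38a1* with 0.799 ± 0.157 CPM per kb were lowest. The order *Slc3a2*, *Slc38a2*, *Slc1a5* held in 18 of 18 kidneys, and *Slc1a5* was above *Slc43a2* and *Slc43a2* above *Slc1a4* in 17 of 18. *Slc1a4* was above *Slc7a5* in 9 of 18 kidneys, so this pair was not ordered. *Slc6a14* was above *Slc38a1* in 5 of 5 *Myc* KO and 2 of 5 *Myc* control kidneys and in 0 of the 8 kidneys of the *Cxcl12* cohort. All annotated exons of a gene entered its length, which lowers the value of genes with long alternative exons such as *Slc38a1* (17236 bases).

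**Figure D1:**
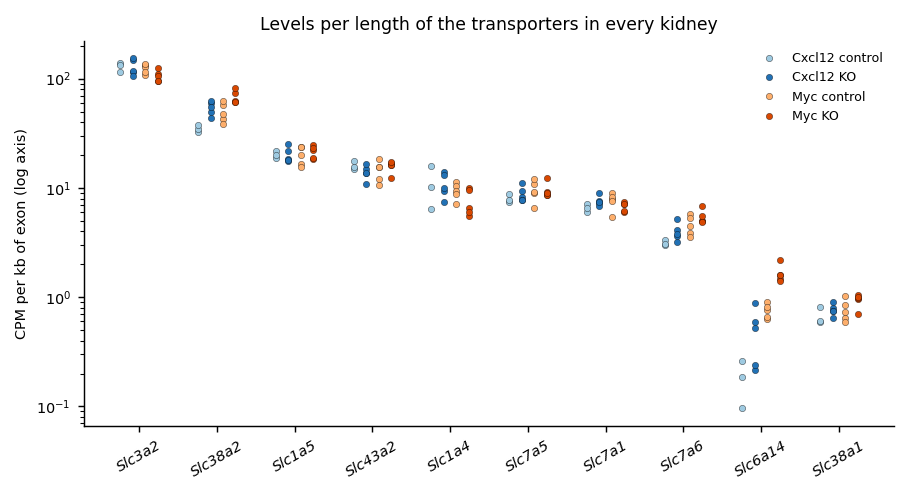
Level per length of each transporter in CPM per kb of exon on a log axis, with 1 point per kidney and the 4 groups side by side in light blue (*Cxcl12* control), dark blue (*Cxcl12* KO), light orange (*Myc* control) and dark orange (*Myc* KO). *Slc3a2* lies between 94.5 and 154 CPM per kb in all kidneys, and the values of *Slc6a14* spread from 0.0966 to 2.20 CPM per kb.

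*Slc6a14* varied most. Its mean was 5.66 ± 1.10 CPM (SD, n = 5) in *Myc* KO, 2.60 ± 0.388 (n = 5) in *Myc* control, 1.69 ± 0.943 (n = 5) in *Cxcl12* KO and 0.624 ± 0.283 CPM (n = 3) in *Cxcl12* control kidneys. It is carried on the X chromosome from 21714896 to 21742355 (GRCm38) and rested on 6 to 126 reads per kidney. In the *Myc* KO kidneys its values were 5.45, 5.01, 5.44, 7.57 and 4.86 CPM, and in the *Myc* control kidneys 3.12, 2.16, 2.64, 2.28 and 2.79 CPM. Every *Myc* KO kidney lay above every *Myc* control kidney. The fold change was 2.16 (95% confidence interval 1.69 to 2.77), a log2 fold change of 1.11 with a standard error of 0.16 (edgeR's quasi-likelihood test, adjusted p = 0.0115, and DESeq2, adjusted p = 2.38e-06). *Slc6a14* was the 1 member past the threshold of 0.05 in the *Myc* cohort, where 0.355% of 14936 genes tested were called higher and 1.29% lower in KO kidneys. Of all genes tested there, 2.05% had every KO kidney above every control kidney and 3.92% every KO kidney below, and among the members *Slc6a14* was the 1 gene of either kind. With the replicate number as a block its adjusted p was 0.0513, and in the 6 kidneys with at least 5% unmapped reads its log2 fold change was 1.32 (adjusted p = 0.0558). It stayed past the threshold in all 10 fits that left out 1 kidney (highest adjusted p = 0.0460).

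The *Slc6a14* values of the *Cxcl12* cohort were 0.747, 2.04, 3.03, 0.832 and 1.80 CPM in KO and 0.332, 0.645 and 0.896 CPM in control kidneys. The groups overlapped, since 2 KO kidneys lay below the highest control kidney. The log2 fold change was 1.40 (standard error 0.52, 95% confidence interval 0.25 to 2.55, adjusted p = 0.302 from edgeR's test). The difference between the *Myc* and the *Cxcl12* KO effect was -0.29 on the log2 scale (95% confidence interval -1.32 to 0.74, adjusted p = 0.883), and 0.0692% of 15903 genes tested were called for this difference. The controls of the cohorts also differed. *Slc6a14* had 4.16 times the mean level in *Myc* controls that it had in *Cxcl12* controls, with no overlap of the values.

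The marker sums also differed between the groups. The summed level of 5 markers of injured tubule (*Havcr1*, *Lcn2*, *Krt20*, *Sox9*, *Clu*) ranged from 2668 to 3867 CPM in *Cxcl12* control, 4584 to 5966 in *Cxcl12* KO, 4687 to 6441 in *Myc* control and 5451 to 6517 CPM in *Myc* KO kidneys. The summed level of 10 leukocyte markers ranged from 70.1 to 71.1 CPM in *Cxcl12* control, 76.2 to 167 in *Cxcl12* KO, 99.9 to 250.5 in *Myc* control and 182 to 276 CPM in *Myc* KO kidneys. The sum of 4 podocyte markers ranged from 539 to 577 CPM in *Cxcl12* control, 515 to 759 in *Cxcl12* KO, 419 to 732 in *Myc* control and 709 to 805 CPM in *Myc* KO kidneys. The medians of these sums had the same order over the 4 groups as the means of *Slc6a14*. Those of the nephron segment lists did not. In *Cxcl12* control, *Cxcl12* KO, *Myc* control and *Myc* KO kidneys the proximal tubule medians were 6513, 6143, 5896 and 6241 CPM. For loop and distal tubule they were 3773, 3243, 4006 and 4431 CPM, and for collecting duct 477.5, 513, 497.8 and 502.2 CPM. The sum of 5 endothelial markers was also highest in *Myc* KO kidneys, with a median of 774 CPM against 514 in *Myc* control, 517 in *Cxcl12* KO and 451 CPM in *Cxcl12* control kidneys. The injury markers did not move as one in the *Myc* cohort. *Havcr1*, which codes for KIM-1, had a log2 fold change of -1.32 (adjusted p = 0.120 from edgeR's test, 5 of 5 KO kidneys below the control mean), *Krt20* and *Sox9* were at -0.02 and -0.03, and *Lcn2* and *Clu* were at 0.39 and 0.26. Leukocyte markers also differed in direction. In the *Myc* cohort *Adgre1* had a log2 fold change of -0.32 and *Lyz2* of -0.22, while *Ptprc*, *Itgam*, *Cd68*, *S100a8* and *S100a9* were above 0. In the *Cxcl12* cohort *Adgre1* was at -0.42 and *Cd68* at -0.07, and the other leukocyte markers tested were above 0. No marker of these lists was at 0 in a whole group. Their part in the result was not tested.

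**Figure D2:**
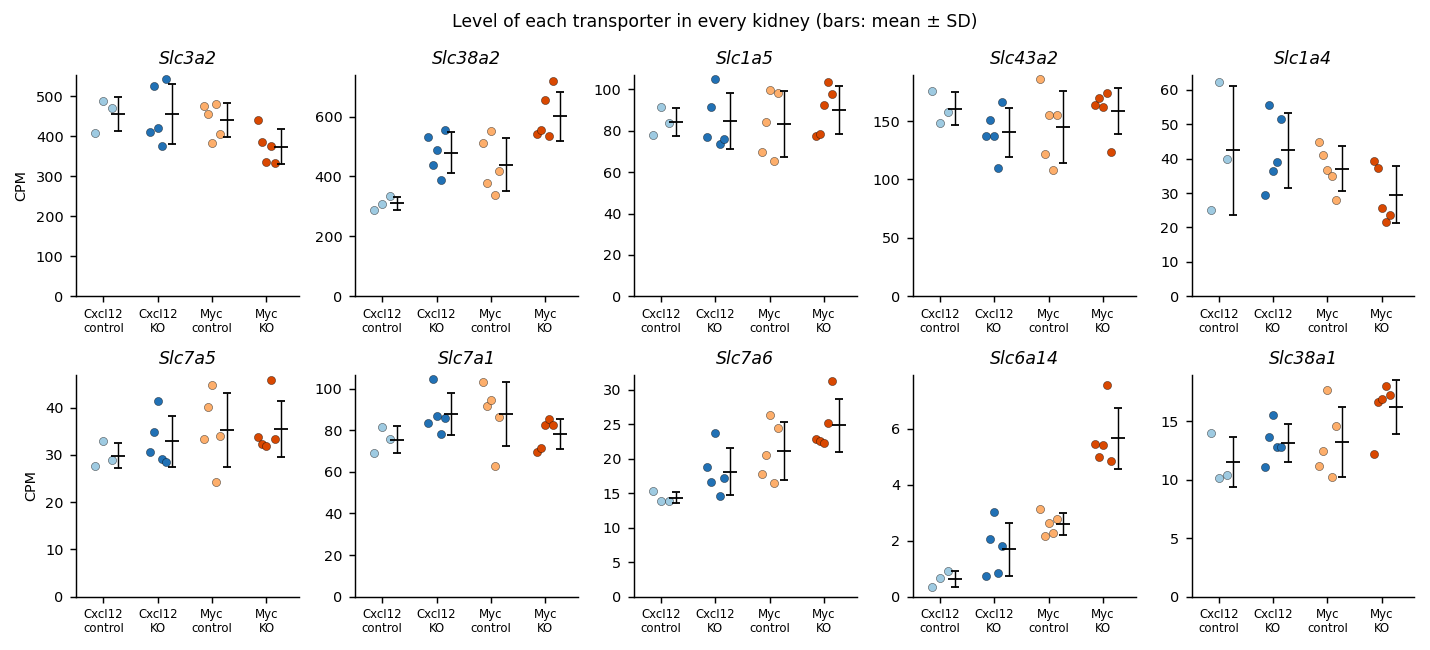
CPM of each transporter in every kidney (y axis, starting at 0) by group (x axis), with the mean ± SD beside the points. The 5 *Myc* KO kidneys sit between 4.86 and 7.57 CPM for *Slc6a14*, above all other groups. KO and control points overlap in the other panels, except for *Slc38a2* in the *Cxcl12* cohort.

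*Slc38a2*, which codes for the sodium-coupled carrier SNAT2 and lies on chromosome 15 from 96687392 to 96699730, also had higher values in both KO groups. Its mean was 602 ± 82.0 CPM (SD, n = 5) after *Myc* deletion against 439.7 ± 89.5 CPM (n = 5) in the controls. The *Myc* KO kidneys had 542, 555, 657, 535 and 719 CPM, and the *Myc* control kidneys had 510.4, 379.8, 552, 338 and 419 CPM. The groups overlapped, since the highest control kidney lay above 2 of the KO kidneys. The log2 fold change was 0.46 (standard error 0.14, 95% confidence interval 0.15 to 0.76), which missed the threshold in edgeR's test (adjusted p = 0.108) and passed it in DESeq2 (adjusted p = 0.0306). Leaving out single kidneys gave 0.37 to 0.55 (adjusted p = 0.0420 to 0.232), and the call passed only without *Myc* control replicate 3, the highest control kidney.

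In the *Cxcl12* cohort *Slc38a2* had 531, 437, 487, 389 and 555 CPM in KO and 289, 307.5 and 334 CPM in control kidneys. All 5 KO kidneys lay above all 3 control kidneys. The fold change was 1.54 and the log2 fold change 0.63 (standard error 0.13, 95% confidence interval 0.35 to 0.91, adjusted p = 0.0947 from edgeR's test and 0.000547 from DESeq2). Among kidneys with at least 5% unmapped reads it was 0.61. In this cohort edgeR called 0% of 15154 genes, although 1976 genes had an unadjusted p under 0.05 and DESeq2 called 353. Groups without overlap were common here, with 4.96% of the genes above and 4.72% below in all KO kidneys, and *Slc38a2* was the 1 member of either kind. The KO effects of the cohorts differed by -0.18 (95% confidence interval -0.60 to 0.24, adjusted p = 0.807).

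The other 8 members had intervals that reached 0 in the *Cxcl12* cohort, and in the *Myc* cohort 7 of them did. *Slc7a5*, the light chain of LAT1 (chromosome 8, 121881150 to 121907694), had 33.7, 32.3, 31.9, 45.9 and 33.5 CPM in *Myc* KO kidneys and 33.3, 40.1, 44.8, 24.2 and 34.0 CPM in *Myc* control kidneys. Its values overlapped widely, as the control mean was above 4 of the 5 KO values and the fifth was above all controls. The log2 fold change was 0.01 (95% confidence interval -0.33 to 0.34, adjusted p = 0.988 from edgeR's test), which leaves changes of up to about that size in either direction undetected. The value of the *Cxcl12* cohort was 0.13 (95% confidence interval -0.16 to 0.42, adjusted p = 0.696).

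*Slc3a2* (chromosome 19, 8706882 to 8723369), the heavy chain that brings its light chains to the membrane, was the member with lower values in *Myc* KO kidneys and an interval that excluded 0. It had 441, 386, 335, 375 and 334 CPM in *Myc* KO and 476, 456, 383, 479 and 406 CPM in *Myc* control kidneys. The ranges overlapped, with the control mean above 4 of the 5 KO values. The log2 fold change was -0.23 (95% confidence interval -0.45 to -0.02), with an unadjusted p of 0.0373 and an adjusted p of 0.205 from edgeR's test. The heavy chain averaged 455 ± 75.2 CPM (n = 5) in KO and 455 ± 43.0 CPM (n = 3) in control kidneys of the *Cxcl12* cohort, a log2 fold change of -0.01 (95% confidence interval -0.31 to 0.30).

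*Slc7a6* codes for the light chain of y+LAT2, which exchanges cationic for neutral amino acids. In *Myc* KO kidneys it had 22.9, 22.6, 22.2, 25.1 and 31.3 CPM against 17.8, 20.6, 26.3, 16.4 and 24.5 CPM in *Myc* control kidneys. All 5 KO kidneys lay above the control mean, but 2 control kidneys lay within the KO range, and the log2 fold change was 0.24 (adjusted p = 0.356 from edgeR's test). For the *Cxcl12* cohort the log2 fold change was 0.33 (95% confidence interval -0.0023 to 0.66, adjusted p = 0.384), again with 5 of 5 KO kidneys above the control mean.

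*Slc7a1*, the arginine carrier CAT-1, had a log2 fold change of -0.17 in the *Myc* cohort (0 of 5 KO kidneys above the control mean) and of 0.21 in the *Cxcl12* cohort (5 of 5 above). The difference between these effects was -0.39 (95% confidence interval -0.74 to -0.03), the 1 member difference whose interval excluded 0, yet its adjusted p was 0.392 in edgeR's test over all genes. *Slc1a5*, the glutamine carrier ASCT2, ranged from 65.2 to 105 CPM over the 18 kidneys, with a log2 fold change of 0.11 in the *Myc* cohort and of -0.0002 in the *Cxcl12* cohort. Their 95% confidence intervals ran from -0.18 to 0.40 and from -0.27 to 0.27.

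*Slc1a4*, which codes for ASCT1, spread widely among control kidneys, with 25.1, 62.4 and 39.9 CPM in the 3 *Cxcl12* controls. Its log2 fold change was -0.34 in the *Myc* cohort (95% confidence interval -0.72 to 0.05, adjusted p = 0.286) and -0.01 in the *Cxcl12* cohort (-0.60 to 0.59). *Slc38a1*, which codes for the glutamine carrier SNAT1, had log2 fold changes of 0.29 (adjusted p = 0.289) and 0.18 (adjusted p = 0.618) in the *Myc* and *Cxcl12* cohorts. For *Slc43a2* they were 0.13 (adjusted p = 0.621) and -0.20 (adjusted p = 0.523). None of these p-values from edgeR's test passed the threshold.

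**Figure D3:**
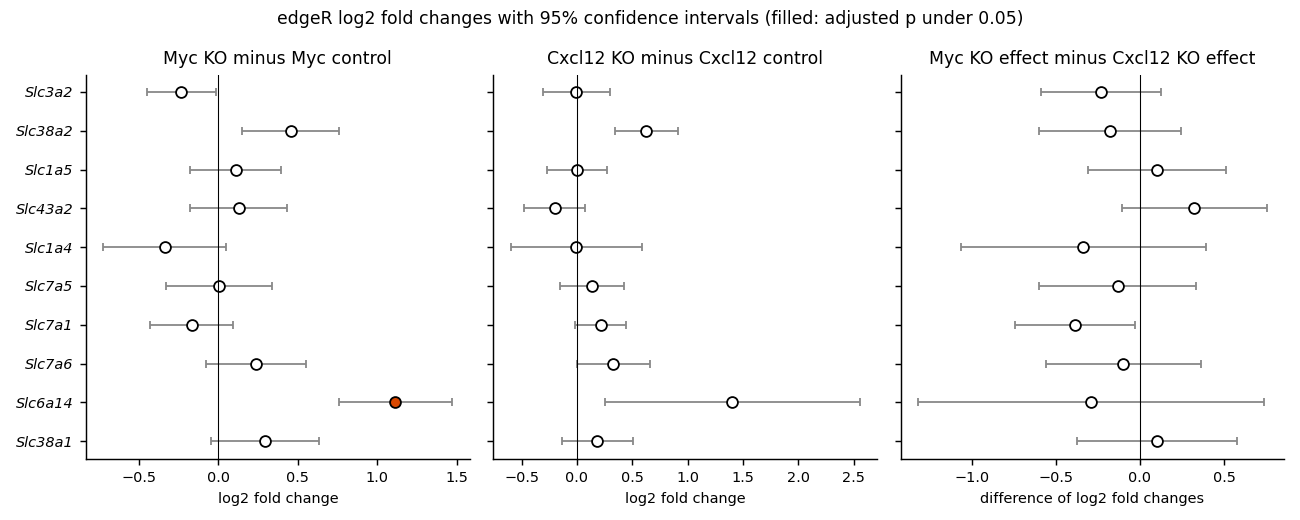
Log2 fold change of each transporter (points) with its 95% confidence interval (bars) in the *Myc* cohort, in the *Cxcl12* cohort and for the difference of both KO effects. The *Slc6a14* point of the *Myc* cohort, at 1.11, is the 1 filled point, which marks an adjusted p under 0.05.

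Over the 10 members, 7 had a log2 fold change above 0 in the *Myc* cohort and 6 in the *Cxcl12* cohort, and the median was 0.12 and 0.16. Over all genes tested the medians were -0.0008 and 0.0008, with 49.8% and 50.2% of the genes above 0. The cohorts do not share control kidneys. Among control kidneys, 3 members (*Slc6a14*, *Slc7a6* and *Slc38a2*) were higher in every *Myc* control than in every *Cxcl12* control, and 0 were lower. Of all genes, 6.23% and 5.88% were without overlap in these directions.

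SLC3A2 needs a light chain to transport amino acids, and the kidney has light chains beyond LAT1. *Slc7a7* and *Slc7a8* code for those of the tubule's basolateral membrane, and *Slc7a11* codes for the cystine carrier xCT. Per kb of exon, *Slc7a8* had 23.0 ± 5.57 and *Slc7a7* 19.9 ± 5.64 CPM per kb (SD, n = 18), above *Slc7a5*, *Slc7a6* and *Slc7a11* (0.832 ± 0.308). *Slc7a5* and *Slc7a6* together made up 23.9% ± 3.73 of the summed level of the 5 light chains (range 15.7% to 33.3%). *Slc3a2* stood at 2.20 ± 0.554 times this sum over all kidneys. The share was 18.5% ± 2.57 in *Cxcl12* control and 25.1% ± 1.48 in *Cxcl12* KO kidneys, without overlap. Of single genes tested in this cohort, 4.96% were above and 4.72% below in all KO kidneys. *Slc7a7*, part of the sum, had 17.4 ± 2.11 CPM per kb in *Cxcl12* KO and 27.1 ± 4.98 in *Cxcl12* control kidneys, without overlap. *Slc7a5* (8.87 and 8.06), *Slc7a6* (3.97 and 3.14) and *Slc7a8* (19.95 and 22.4) overlapped between these groups. In the *Myc* cohort the share was 26.9% ± 3.92 in control and 23.1% ± 1.70 in KO kidneys, with overlap. The ratio of *Slc3a2* to the sum was 1.65 ± 0.296 in *Myc* KO against 2.44 ± 0.577 in *Myc* control, and 2.54 ± 0.431 in *Cxcl12* KO against 2.14 ± 0.441 in *Cxcl12* control kidneys, with overlapping ranges in both cohorts.

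Whether the heavy chain and its light chains vary together from kidney to kidney does not depend on the choice of the members by their KO effects. For this, each kidney's log2 CPM was set against the mean of its group, and the deviations were permuted within groups (100000 permutations, two-sided, Benjamini-Hochberg over 5 light chains). *Slc7a5* did not track *Slc3a2* (Pearson r = -0.147, Spearman rho = -0.046, permutation p = 0.586 and 0.870 before and after adjustment, n = 18). For *Slc7a6* r was -0.436 and rho -0.424 (permutation p = 0.113 and 0.118, adjusted p = 0.283 and 0.284). For *Slc7a11* r was 0.483 and rho 0.445 (permutation p = 0.0951 and 0.115, adjusted p = 0.283 and 0.284).

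For *Slc7a8* r was -0.345 and rho -0.329 (permutation p = 0.183 and 0.228, adjusted p = 0.304 and 0.284), and for *Slc7a7* r was 0.280 and rho 0.335 (permutation p = 0.290 and 0.206, adjusted p = 0.363 and 0.284). Without the kidneys farthest from the median of *Slc3a2* (*Cxcl12* KO replicates 4 and 5), r for *Slc7a6* was -0.715 and rho -0.700 (permutation p = 0.00921 and 0.0084, adjusted p = 0.0460 and 0.0420, n = 16). In the same 16 kidneys r was -0.169 for *Slc7a5*, 0.219 for *Slc7a7*, -0.544 for *Slc7a8* and 0.354 for *Slc7a11*. In the 12 kidneys with at least 5% unmapped reads r was -0.236 for *Slc7a6* and 0.755 for *Slc7a11* (exact permutation p = 0.725 and 0.0363, adjusted p = 0.906 and 0.181). In the other 6 kidneys r was -0.659 and 0.601 for these genes, with no test, since 2 kidneys in each of 3 groups allow no exact permutation p below 0.25. No light chain passed the threshold with *Slc3a2* over all 18 kidneys, and *Slc7a6* passed it without *Cxcl12* KO replicates 4 and 5.

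**Figure D4:**
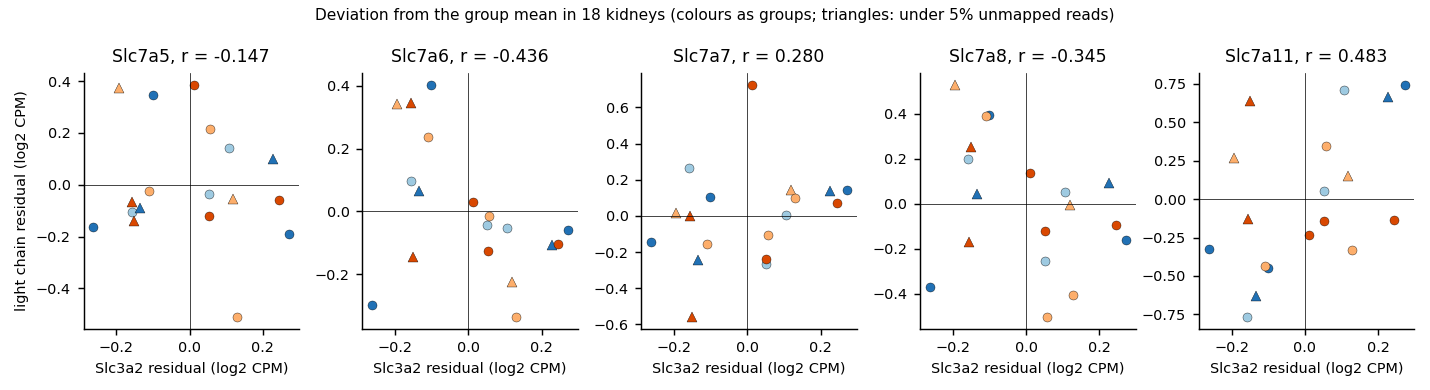
Deviation of each light chain (y axis, log2 CPM) against that of *Slc3a2* (x axis, log2 CPM) from the group mean, 1 point per kidney, in light and dark blue for *Cxcl12* control and KO and in light and dark orange for *Myc* control and KO. Triangles are the 6 kidneys with under 5% unmapped reads, and r over the 18 kidneys runs from -0.436 for *Slc7a6* to 0.483 for *Slc7a11*.

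Some genes outside the list had deviations most like those of *Slc6a14* and *Slc7a5* over the 18 kidneys, among 13753 genes with a mean of at least 1 CPM. For *Slc6a14* these were *Eno1b* (r = 0.824), *Osbp2* (r = 0.820) and *Plxna4* (r = 0.815). *Eno1b* is nearly identical to *Eno1*, so its reads are uncertain. For *Slc7a5* they were *Shisa7* (r = 0.918), *Dnaja1* (r = 0.898), a co-chaperone of HSP70, and *Tgfbr3l* (r = 0.898).

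Of 42 other amino acid transporters, 31 were tested in the *Myc* cohort, and 1 was called higher and 1 lower. *Slc6a12*, which carries betaine and GABA, had 4.79 ± 0.720 CPM in *Myc* KO and 2.93 ± 0.479 CPM in *Myc* control kidneys (n = 5 each, log2 fold change 0.72, adjusted p = 0.0429 from edgeR's test). *Slc6a9*, the glycine carrier GLYT1, fell from 44.8 ± 11.2 to 26.9 ± 4.84 CPM (log2 fold change -0.73, adjusted p = 0.0494). *Slc38a4*, another carrier of system A, was at 0.57 (adjusted p = 0.102). The median of the list was -0.0008, as over all genes. The call of *Slc6a12* was lost in 8 of the 10 fits that left out 1 kidney (highest adjusted p = 0.117) and held without *Myc* KO replicate 1 or *Myc* control replicate 3. That of *Slc6a9* was lost in 9 of 10 (highest adjusted p = 0.107) and held without *Myc* control replicate 3.

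Of the same 42 genes, 33 were tested in the *Cxcl12* cohort and 0 were called by edgeR, with a median log2 fold change of -0.16 against 0.0008 over all genes. The smallest p-values belonged to *Slc6a13* (GABA and taurine), *Slc7a7* and *Slc36a1* (a lysosomal and membrane carrier of small amino acids). *Slc6a13* had 39.1 ± 2.72 CPM in KO (n = 5) and 62.7 ± 10.1 CPM in control kidneys (n = 3, log2 fold change -0.69, adjusted p = 0.0648 from edgeR's test). *Slc7a7* had a log2 fold change of -0.64 (adjusted p = 0.0942) and *Slc36a1* of -0.40 (adjusted p = 0.0973). DESeq2 called 5 of the 33 transporters and no gene of the 2 lists described next, which had 40 and 17 genes tested. Over all genes it called 353 of 15154. Whether the lists differ in this was not tested.

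Of the 41 genes of amino acid sensing and mTORC1, 40 were tested in each cohort. *Eif4ebp1*, the translation repressor phosphorylated by mTORC1, was the 1 gene called, with 62.8 ± 5.06 CPM in *Myc* KO and 82.2 ± 7.63 CPM in *Myc* control kidneys (n = 5 each, log2 fold change -0.39, adjusted p = 0.0401 from edgeR's test). This call was lost in 8 of the 10 fits that left out 1 kidney (highest adjusted p = 0.120), all but those without *Myc* control replicate 1 or 3. *Tbc1d7*, a subunit of the TSC complex, and *Akt1s1*, the mTORC1 inhibitor PRAS40, had log2 fold changes of -0.35 and -0.39 (adjusted p = 0.0835 and 0.0974). The list's median was -0.06 in the *Myc* cohort. It was -0.07 in the *Cxcl12* cohort, where 0 genes were called and *Lamtor5*, *Castor2* and *Kptn* had the smallest p-values (adjusted p = 0.173, 0.300 and 0.370).

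Of 17 genes of glutamine use, 16 were tested in the *Myc* cohort and 4 of these were above 0, with a median of -0.16. *Cad*, which starts pyrimidine synthesis from glutamine, fell from 44.3 ± 3.14 to 30.3 ± 2.27 CPM (n = 5 each, log2 fold change -0.55, adjusted p = 0.0106 from edgeR's test), with no overlap between the groups. Its call held in all 10 fits that left out 1 kidney, and was lost with the replicate block (adjusted p = 0.0513) and in the kidneys with at least 5% unmapped reads (adjusted p = 0.0558). *Asns*, asparagine synthetase, and *Ctps*, CTP synthase, had log2 fold changes of -0.63 and -0.34 (adjusted p = 0.0591 and 0.0633). *Ctps* and *Ppat* (log2 fold change -0.23, adjusted p = 0.136) also had every KO kidney below every control kidney. *Glul* had every KO kidney above (log2 fold change 0.36, adjusted p = 0.0836 from edgeR's test). Of all genes tested in the *Myc* cohort, 3.92% were below and 2.05% above in this way. In the *Cxcl12* cohort 17 were tested, 0 were called, and 12 were above 0 with a median of 0.13. *Glul*, glutamine synthetase, had the smallest p-value there (log2 fold change 0.55, adjusted p = 0.224 from edgeR's test). *Nadsyn1*, NAD synthetase, and *Ctps2*, a second CTP synthase, followed with -0.31 and 0.24 (adjusted p = 0.319 and 0.327).

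**Figure D5:**
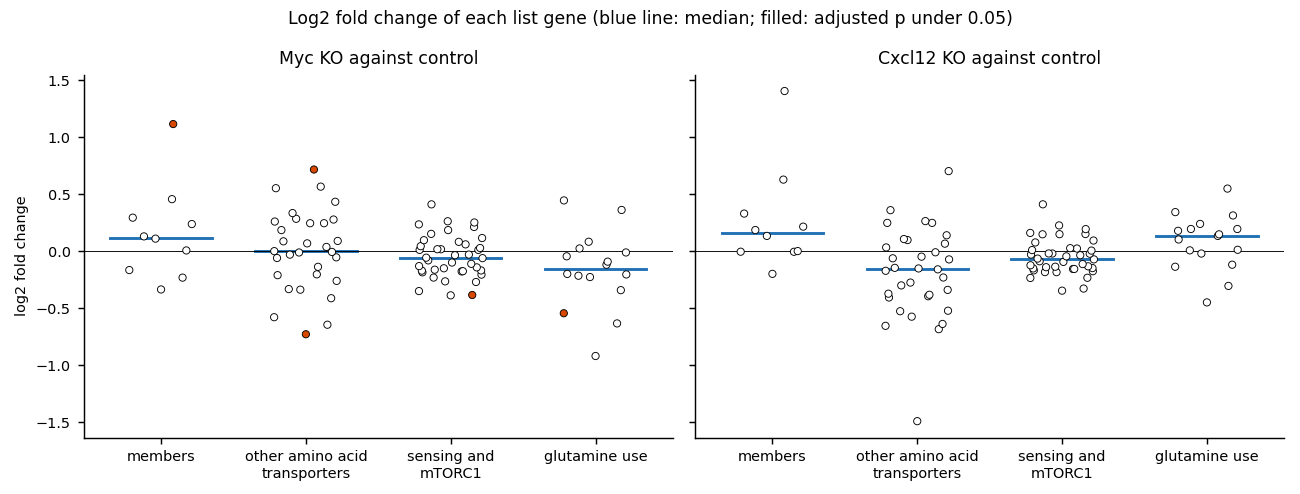
Log2 fold change of each gene of the 4 lists (points) in the *Myc* and the *Cxcl12* cohort, with the list median as a blue line and filled points for an adjusted p under 0.05. The 5 filled points are all in the *Myc* cohort, and the lowest point of the *Cxcl12* cohort, *Slc7a12*, was not called.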

How the data were processed

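Per the labels and the paper's methods, the authors trimmed the reads with Trimmomatic 0.32, aligned them to GRCm38 with STAR 2.4.0 and deposited the resulting counts per gene, 1 file a kidney, as raw values. The authors' own calibration for a batch was not used here, since no batch is named. Counts regardless of strand were used, because both strands held about the same number of reads.

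For each cohort, genes passing filterByExpr were tested with edgeR 4.0.16 (quasi-likelihood test after TMM scaling, R 4.3.3). Adjusted p-values are Benjamini-Hochberg values over all genes tested. The difference of the KO effects was fitted over all 18 kidneys. CPM were scaled by TMM over the 18 kidneys, with a prior count of 2 for log2 values. Exon lengths and positions came from GENCODE vM21. On simulated data the fit found 77 of 98 genes changed by 1 log2 unit in the *Myc* design and 60 of 98 in the *Cxcl12* design. It made 14 and 9 false calls. Every simulated gene had the same fixed spread, not that of these kidneys, so the counts do not give the power in the real data. The alternatives used DESeq2 1.42.0 and limma 3.58.1.

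The members, gene lists, tests and alternatives were chosen with earlier results of these data known. Text names all members, all list genes with an adjusted p under 0.05, the 3 smallest p-values per list and cohort, and the 3 genes most like *Slc6a14* and *Slc7a5*. *Slc7a12*, *Ppat* and the *Glul* value of the *Myc* cohort were singled out after their values were seen. No 2 kidneys of a group (33 pairs) agreed within sampling noise. The labels call replicates separate mice only by number, so p-values measure the spread between these kidneys.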

Additional observations from a re-analysis of the deposited data

Results flagged for a closer look

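Among 30 checks of single kidneys (10 transporters in 3 groups of 5), 4 values from 3 *Myc* KO kidneys stood apart from the other 4 of the group. Their gap to the next kidney was 0.762 to 0.867 of the range of the group. Chance gives this in about 1 in 20 checks. The 10 transporters were read in the same kidneys, so the checks are not independent, and whether 4 exceeds chance was not tested. *Myc* KO replicate 4 had the highest *Slc6a14* (7.57 CPM, next 5.45) and the highest *Slc7a5* (45.9 CPM, next 33.7). Without it the *Myc* KO effect on *Slc6a14* was 0.99 (adjusted p = 0.0393 from edgeR's test) and that on *Slc7a5* was -0.11 (adjusted p = 0.737). *Myc* KO replicate 1 had the lowest *Slc38a1* (12.2 CPM, next 16.7), and *Myc* KO replicate 5 had the lowest *Slc43a2* (124 CPM, next 162).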

How the results depend on the processing

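Over the alternatives, 208 of 220 values of the members in the *Myc* cohort, 176 of 200 in the *Cxcl12* cohort and 196 of 199 of the difference kept their direction and their side of the threshold. In the *Myc* cohort 1 member was called, and 2 (*Slc6a14* and *Slc38a2*) with DESeq2 and with the unmapped share, split at 5%, as a covariate. There were 0 with the replicate block, 0 in the kidneys with at least 5% unmapped reads, and 1 to 2 on leaving out single kidneys. In the *Cxcl12* cohort 0 were called, and 1 (*Slc38a2*) with DESeq2 and without a filter. No *Cxcl12* control had under 5% unmapped reads, so there the covariate fit took its KO effect from the kidneys with at least 5%. The other lists had 31, 40 and 16 genes tested in the *Myc* cohort. Of these genes 4 were called, 12 with DESeq2, 8 with the covariate and 7 with all 18 kidneys in the fit. With counts of one strand 1 was called, 0 with the replicate block, 0 in the kidneys with at least 5% unmapped reads and 1 to 9 without single kidneys. Over all genes the main fit called 246 of 14936, DESeq2 1131, the covariate fit 954, and all 18 kidneys 683 of 15903. One strand gave 165 of 14579, the replicate block 18, the kidneys with at least 5% unmapped reads 8 of 15033, and leaving out single kidneys 21 to 877. In the *Cxcl12* cohort the count of list genes called was 0, 5 with DESeq2, 2 without a filter and 1 with the covariate. Over all genes the main fit called 0 of 15154, DESeq2 353, the covariate fit 123, and the fit without a filter 214 of 27956. The cause of these changes was not tested.

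Values near 0 changed sign. *Slc7a5* in the *Myc* cohort was at -0.0082 with upper-quartile scaling, -0.0053 without a filter, -0.045 with the other strand, and -0.11 to 0.11 on leaving out single kidneys. In the *Cxcl12* cohort *Slc1a5* was at 0.0001 with DESeq2, 0.0 with median-ratio scaling, 0.0020 without a filter, 0.015 with the other strand, 0.10 with the replicate block, 0.0017 with the covariate, 0.0036 with all 18 kidneys and -0.0898 to 0.0608 without single kidneys. *Slc1a4* was at 0.054 with limma voom and 0.040 with one strand, and -0.28 to 0.38 without single kidneys, where *Slc3a2* ran from -0.0806 to 0.057. For the difference of the effects, leaving out single kidneys gave -0.63 to 0.019 for *Slc6a14*, -0.20 to 0.0201 for *Slc7a6* and -0.0532 to 0.23 for *Slc38a1*. The r of *Slc3a2* with *Slc7a6* was -0.715 without the 2 farthest kidneys, and that with *Slc7a7* was -0.002 in the kidneys with at least 5% unmapped reads. TPM keeps the order of genes within a kidney and so is no check of it.

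Over all genes the replicate block cut the calls in the *Myc* cohort from 246 to 18, and DESeq2 raised them to 1131. Pairs of KO and control kidneys with equal replicate numbers had a mean r of 0.06 over 5 pairs in the *Myc* cohort and of 0.067 over 3 pairs in the *Cxcl12* cohort. In each, 2 pairs were above 0.1. Pairs with unequal numbers had a mean r of -0.014 over 20 pairs (8 above 0.1) and of -0.016 over 12 pairs (1 above 0.1). So few equal pairs do not settle whether the number marks a pairing, and it was not taken as one. Depth limits *Slc6a14*, at 6 to 15 reads in the *Cxcl12* controls.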
